A study of Mus musculus with 15 samples.

Results

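The transcripts of 45 cell cycle and proliferation genes were followed in mouse kidney and lung after organ injury. The genes were taken by name from a count table of 56748 genes, and each of the 45 was found once. They cover the G1/S switch (4 genes), origin licensing and helicase loading (9), the replication clamp and nucleotide supply (4), mitotic cyclins, Cdk1 and factors of the anaphase-promoting complex (7), mitotic kinases and spindle checkpoint (5), the chromosomal passenger complex and centromere (6), spindle motors, microtubule binders and cytokinesis (8), and the chromosome structure markers *Mki67* and *Top2a* (2).

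The study asked what an antibody against leptin, the hormone released by fat cells, does to fibrosis. Libraries came from 5 groups of 3 wild-type (WT) mice, which the study's methods give as male C57Bl/6. WTK kidneys are labelled as vehicle-treated, with no antibody named for them, and whether these mice received IgG is not given. IgGK and LepK kidneys had received folic acid (200 mg/kg), which injures the tubule, and then, every other day, injections of IgG (IgGK) or of LepAb, an antibody that neutralizes leptin (LepK). The labels give no antibody dose for the kidneys, and the study tested a range of doses and chose 10 mg/kg for its later experiments. These mice were 10 to 12 weeks old at the start and the kidneys were taken on day 28. IgGL and LepL lungs came from mice 12 weeks old that had received bleomycin (1.5 units/kg), which breaks DNA and injures the lung. IgG or LepAb (10 mg/kg) was also given every other day, and the lungs were taken on day 14. By the study's methods the lung injections ran up to day 14, while the kidney injections ended before day 28. No vehicle-treated lung was among the libraries analysed here, so the effect of bleomycin alone was not measured. IgGK differs from WTK in folic acid and, by the labels, in IgG, and these cannot be told apart. Each library is RNA of a whole organ, in which fewer dividing cells and less RNA per dividing cell cannot be told apart.

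Cells commit to division in G1, when cyclin E and its kinase release E2F transcription factors, which switch on the genes for DNA replication. A later wave, driven by FOXM1 and by a MuvB complex that contains B-MYB, switches on the genes for mitosis, so that these transcripts are abundant only in cells that are cycling. In the adult kidney and lung few cells divide. After injury, surviving epithelial cells, fibroblasts and immune cells can enter the cycle.

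Total counts per library were 25913969 to 38924788, so that 1 count equalled 0.0257 to 0.0386 normalized CPM (read counts scaled to library size). All 45 genes passed the filter on low counts in every comparison. Levels are normalized CPM, scaled by TMM factors within kidney or within lung, with replicates given in the order 1, 2, 3. Fold changes are log2 values ± a standard error, with 3 libraries per group. The error was derived from edgeR's quasi-likelihood test, as the absolute log2 fold change over the square root of its F statistic. The intervals use this derived error. A gene was called, and is said to have risen or fallen, at an adjusted p under 0.05 over all genes tested and an absolute log2 fold change over 0.5. Nothing in the labels says whether a library holds a pool of mice. Each was taken as 1 mouse, and p-values measure the spread between these libraries. The tissue labels were checked against tissue genes. The summed level of 10 proximal tubule markers was 12248 to 51158.5 CPM in the kidneys and at most 1012 CPM in the lungs, and that of 10 alveolar and airway markers was at least 16571 CPM in the lungs and at most 33.7 CPM in the kidneys.

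Proliferation genes were higher in folic acid kidney than in vehicle kidney, and a small number of them were lower again under LepAb. *Mki67* encodes Ki-67, the protein that coats mitotic chromosomes and is the usual stain for dividing cells. Its level was 2.74, 5.09 and 5.55 in WTK, 18.04, 25.7 and 20.7 in IgGK and 8.86, 15.5 and 10.5 in LepK. The ranges of the 3 groups did not overlap, with LepK between the others. *Mki67* rose from WTK to IgGK (log2 fold change 2.26 ± 0.26, adjusted p = 1.07e-05) and fell from IgGK to LepK (log2 fold change -0.89 ± 0.24, adjusted p = 0.0211). *Top2a*, the topoisomerase that untangles replicated DNA, measured 2.66, 5.09 and 3.75 in WTK, 12.99, 18.3 and 12.6 in IgGK and 7.80, 8.08 and 8.57 in LepK. These ranges were again apart and in the same order. *Top2a* rose from WTK to IgGK (log2 fold change 1.93 ± 0.22, adjusted p = 1.02e-05) and fell from IgGK to LepK (log2 fold change -0.85 ± 0.21, adjusted p = 0.0131). Both remained above vehicle under the antibody, with 1.37 ± 0.26 for *Mki67* (adjusted p = 0.00126) and 1.08 ± 0.22 for *Top2a* (adjusted p = 0.00203) from WTK to LepK. IgGK and LepK enter more than 1 of these comparisons, so the comparisons share libraries and their values are not independent.

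**Figure D1:**
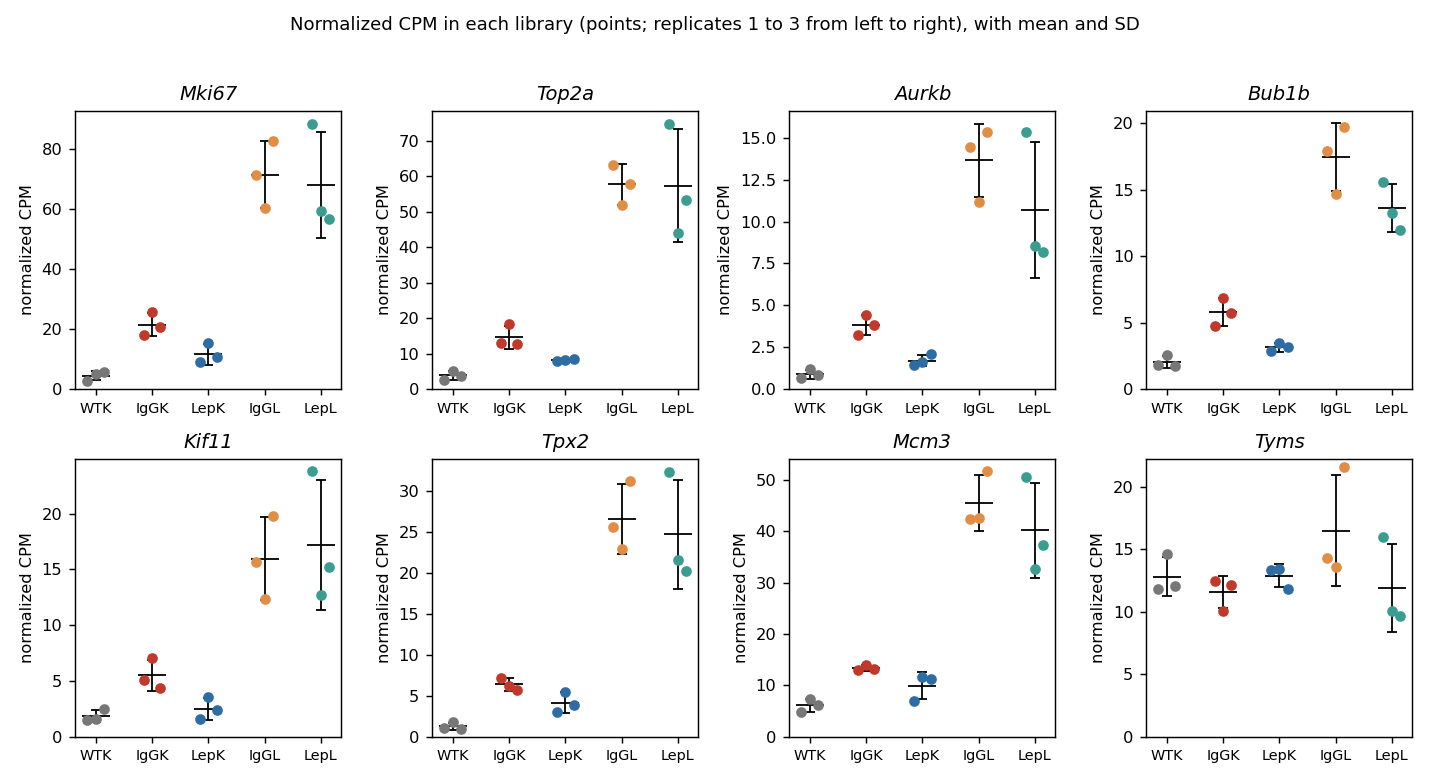
Normalized CPM (vertical axes, from 0) of 8 genes in each of the 15 libraries, with replicates 1 to 3 from left to right within a group, the mean as a horizontal line and the SD as bars (n = 3). The 5 genes called lower in LepK than in IgGK stand first, *Tpx2* and *Mcm3* rose in IgGK, and *Tyms* shows overlapping kidney groups. In LepL, replicate 1 is the highest point in all 8 panels.

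Apart from *Mki67* and *Top2a*, 3 members fell from IgGK to LepK. They are *Aurkb*, the kinase of the chromosomal passenger complex, *Bub1b*, which encodes the checkpoint protein BubR1, and *Kif11*, the motor that pushes the spindle poles apart. For the members that fell and had an entry in the RefSeq promoter table, which has none for *Aurkb*, the 150 bases before the annotated start are shown, because mitotic genes are known to share short elements there. Capitals mark the CHR (TTTGAA), the element bound by the MuvB complex, and the CCAAT box, bound by NF-Y, each on either strand. The windows lie in GRCm38.p6 at chr7:135716380-135716529 (minus strand) for *Mki67*, chr11:99024190-99024339 (minus strand) for *Top2a*, chr2:118598061-118598210 (plus strand) for *Bub1b* and chr19:37376232-37376381 (plus strand) for *Kif11*. The sequences, 5′ to 3′ on the strand of the gene, are as follows.
Mki67: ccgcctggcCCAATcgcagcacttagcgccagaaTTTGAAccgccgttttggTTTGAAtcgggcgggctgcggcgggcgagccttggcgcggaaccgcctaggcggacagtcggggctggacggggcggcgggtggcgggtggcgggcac
Top2a: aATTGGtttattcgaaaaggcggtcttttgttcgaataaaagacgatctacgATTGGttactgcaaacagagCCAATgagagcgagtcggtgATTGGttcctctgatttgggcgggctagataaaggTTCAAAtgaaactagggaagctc
Bub1b: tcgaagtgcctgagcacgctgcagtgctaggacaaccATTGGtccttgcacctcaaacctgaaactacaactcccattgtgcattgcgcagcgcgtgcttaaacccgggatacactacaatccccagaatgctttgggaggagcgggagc
Kif11: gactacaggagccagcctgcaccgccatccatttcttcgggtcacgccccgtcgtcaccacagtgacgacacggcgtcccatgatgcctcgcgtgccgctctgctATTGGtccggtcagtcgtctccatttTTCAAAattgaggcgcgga

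In these stretches *Mki67* has 1 CCAAT box and 2 CHR matches, *Top2a* has 4 CCAAT boxes and 1 CHR match close to the start, *Kif11* has 1 of each, and *Bub1b* has 1 CCAAT box, its CHR match lying outside the bases shown. The search was then run on 37 of the 45 members, those with an entry, in the whole window of 250 bases before to 50 bases after the start. TTTGAA was present on either strand in 19 of the 24 promoters of the G2/M members (79.2%) and in 2 of the 13 of the G1/S and S phase members (15.4%), against 20.1% of the promoters of all 26742 genes in the table. CCAAT was present in 87.5% and 69.2% of them, and in 41.0% of all. Both elements together stood in 75.0% of the G2/M promoters and in 8.96% of all. The E2F words TTTCCCGC, TTTGGCGC and TTTCGCGC were found in 5 of 7 promoters of the licensing group (71.4%), those of *Cdc6*, *Mcm3*, *Mcm5*, *Mcm6* and *Mcm7*, in 4.17% of the G2/M promoters (*Cdk1* alone) and in 2.14% of all. Matches of different kinds overlapped in 2 cases among the members. A match describes letters and not a bound site. Of the 21 members with TTTGAA, 17 rose in IgGK and 4 fell in LepK, with median log2 fold changes of 1.38 and -0.61. Of the 16 without it, 8 rose and 0 fell by edgeR (4 at an unadjusted p under 0.05, with *Cdc6* called lower by DESeq2), with medians of 0.64 and -0.29. Over all genes tested, 21.7% rose in IgGK and 5.99% fell in LepK, and calls among all genes with TTTGAA were not counted. Members of each kind differ also in their phase, and this split has no test.

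From WTK to IgGK, 31 of the 45 members rose (68.9%) and none fell, while 21.7% of the 19593 genes tested rose and 15.6% fell. No member was lower at an unadjusted p under 0.05, and DESeq2 also gave 31 higher and 0 lower. The median log2 fold change was 1.13 over the members and 0.04 over all genes tested, and 42 of 45 were higher. With scaling by library size alone, which moves the median of all genes to 0.48, all 45 were higher. For 34 members (75.6%) every IgGK library lay above every WTK library, which held for 32.5% of all genes tested. The 28 G2/M members had a median of 1.35 with 22 called. The 17 G1/S and S phase members, among which *Foxm1* was counted, had a median of 0.53 with 9 called. Of the 31, 27 were called in each of the 6 fits that left out 1 library.

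**Figure D2:**
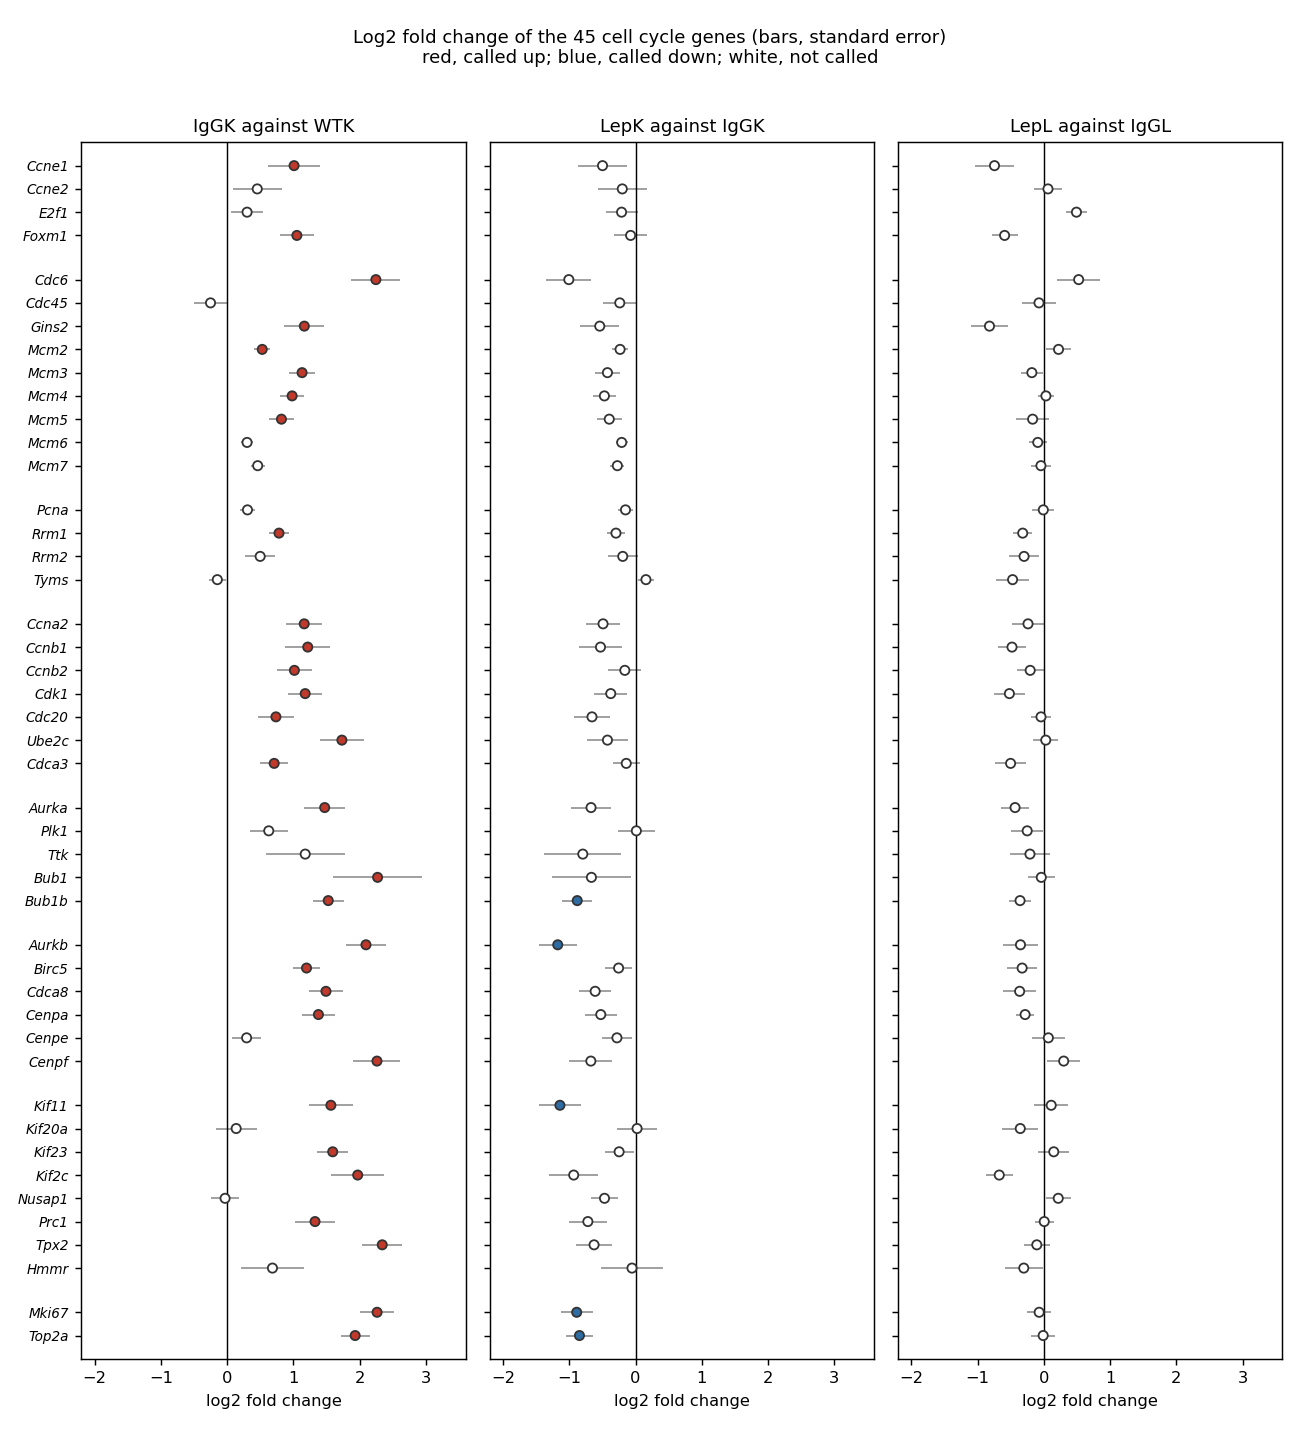
Log2 fold change (horizontal axes) of each of the 45 genes, ordered by role from the G1/S switch at the top to the chromosome structure markers at the bottom, with bars for the standard error. Red marks genes called higher (31 in IgGK against WTK), blue genes called lower (5 in LepK against IgGK) and white genes not called, which are all 45 in LepL against IgGL.

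In the group listed as the G1/S switch, *Ccne1* and *Foxm1* rose. *Foxm1* acts in the later mitotic wave, but it was listed here and counted throughout with the G1/S and S phase members. *Ccne1*, which encodes cyclin E1, measured 0.789, 1.03 and 1.26 in WTK, 1.71, 3.20 and 1.30 in IgGK and 1.19, 1.74 and 1.48 in LepK. Its highest value was that of IgGK replicate 2, and the lowest IgGK value stood just above the highest WTK value. It rose with log2 fold change 1.01 ± 0.39, adjusted p = 0.0431, and was called in 3 of the 6 fits without 1 library. *Foxm1*, the transcription factor of the mitotic wave, measured 2.08, 3.20 and 2.06 in WTK, 4.72, 6.57 and 3.90 in IgGK and 4.81, 5.20 and 4.43 in LepK. Each IgGK library lay above each WTK library, and the LepK values lay inside the range of IgGK. *Foxm1* rose in IgGK (log2 fold change 1.05 ± 0.25, adjusted p = 0.00369) and differed by -0.07 from IgGK to LepK (95% interval -0.61 to 0.46). The level of *Ccne2*, the gene of cyclin E2, was 1.95, 0.869 and 2.45 in WTK, 2.70, 2.29 and 2.25 in IgGK and 2.11, 2.78 and 1.40 in LepK, with overlap of all groups. *E2f1*, the activator of the replication genes, measured 4.86, 6.002 and 6.09 in WTK, 5.08, 9.77 and 6.01 in IgGK and 4.91, 5.93 and 7.24 in LepK, where IgGK replicate 2 alone exceeded the WTK range. Neither *Ccne2* (0.45 ± 0.37) nor *E2f1* (0.30 ± 0.24) was called in IgGK.

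Of the 9 licensing and helicase genes, 6 rose, with a median of 0.82. The largest log2 fold change was that of *Cdc6*, which loads the MCM helicase onto origins, at 0.332, 0.395 and 0.613 in WTK, 1.98, 2.49 and 1.97 in IgGK and 1.25, 0.838 and 1.11 in LepK. The groups did not overlap. *Cdc6* rose in IgGK (log2 fold change 2.24 ± 0.37, adjusted p = 0.000214) and remained above vehicle in LepK (log2 fold change 1.24 ± 0.37, adjusted p = 0.0197), while the difference from IgGK to LepK of -1.01 had an adjusted p of 0.0537. The call of *Cdc6* in LepK against WTK was kept in 3 of the 6 fits without 1 library. *Gins2*, a subunit of the active helicase, measured 1.41, 2.29 and 1.55 in WTK, 4.55, 4.001 and 3.24 in IgGK and 2.83, 1.81 and 3.47 in LepK and rose in IgGK (1.16 ± 0.30, adjusted p = 0.00553). Its LepK values reached from the WTK range into the IgGK range. The helicase subunits *Mcm3* (1.13 ± 0.20), *Mcm4* (0.98 ± 0.18), *Mcm5* (0.82 ± 0.19) and *Mcm2* (0.53 ± 0.12) rose in IgGK, with adjusted p of 0.000406, 0.000565, 0.00266 and 0.00229. The rise of *Mcm2* was called in 3 of the 6 fits without 1 library. Levels of *Mcm2* were 13.002, 14.5 and 15.6 in WTK, 22.6, 22.5 and 17.2 in IgGK and 16.9, 17.7 and 18.4 in LepK, and those of *Mcm4* were 9.39, 6.95 and 6.09 in WTK, 15.5, 16.6 and 12.02 in IgGK and 11.1, 8.98 and 11.9 in LepK. LepK lay between the other groups for *Mcm2*, above every WTK value but with overlap with IgGK, and for *Mcm4* below every IgGK value but with overlap with WTK.

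The remaining subunits moved less. *Mcm6* measured 25.3, 24.1 and 25.5 in WTK, 27.7, 34.3 and 30.3 in IgGK and 25.6, 25.1 and 29.2 in LepK, and *Mcm7* measured 21.2, 26.2 and 24.96 in WTK, 30.6, 36.8 and 32.1 in IgGK and 24.5, 28.03 and 29.8 in LepK. In both genes IgGK lay above WTK without overlap, and the differences of 0.30 ± 0.09 and 0.46 ± 0.11 passed the p threshold (adjusted p = 0.0167 and 0.00269) and not the fold threshold. Per kilobase of gene length, which allows levels of genes to be compared, *Mcm7* (5.45 CPM per kilobase) and *Mcm6* (5.35) came after *Pcna* (11.01) as the highest members in WTK, whereas *Cenpf* (0.0610) and *Ttk* (0.0722) were the lowest. *Cdc45*, the third component of the helicase, measured 3.07, 3.79 and 3.50 in WTK, 3.69, 2.89 and 2.14 in IgGK and 2.80, 2.58 and 1.99 in LepK. Its IgGK values overlapped those of WTK, with a log2 fold change of -0.25 ± 0.26. The libraries do not keep the strand, and reads where *Mcm7* overlaps *Cops6* and *Ap4m1*, *Cdc45* overlaps *Ufd1* and *Gins2* overlaps *Gse1* cannot be assigned by strand. These neighbours held 41720, 6816, 27335 and 9587 counts over the 15 libraries. The same limit holds for *Ccne2* with *Ints8* (10130 counts against 1901 for the member) and *Ccna2* with *Exosc9* (7022 against 5236). It holds too for *Cdca8* with *9930104L06Rik* (7594 against 3668) and *Prc1* with *Rccd1* (3984 against 4206).

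In the group of the clamp and nucleotide supply 1 of 4 genes rose. It was *Rrm1*, the large subunit of ribonucleotide reductase, which makes deoxynucleotides, with 12.7, 10.5 and 10.7 in WTK, 18.8, 21.3 and 18.1 in IgGK and 12.4, 18.3 and 16.9 in LepK. The IgGK range lay above that of WTK, and it rose with log2 fold change 0.78 ± 0.14, adjusted p = 0.000528. *Rrm2*, the small subunit, measured 3.90, 7.58 and 4.58 in WTK, 7.02, 8.75 and 6.91 in IgGK and 6.09, 7.44 and 6.31 in LepK, with a difference of 0.50 ± 0.23 (adjusted p = 0.0873) and overlap between WTK and IgGK. *Pcna*, the sliding clamp of the replication fork, measured 23.6, 28.5 and 27.2 in WTK, 34.6, 30.8 and 32.7 in IgGK and 25.3, 29.6 and 33.5 in LepK. It was higher in each IgGK library than in each WTK library by a small amount (0.31 ± 0.11), under the fold threshold. The folate-dependent enzyme thymidylate synthase, *Tyms*, measured 11.8, 14.6 and 12.05 in WTK, 12.5, 10.1 and 12.1 in IgGK and 13.4, 13.4 and 11.9 in LepK. Its kidney groups overlapped, and the difference from WTK to IgGK was -0.15 ± 0.13 (95% interval -0.43 to 0.13).

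All 7 genes of the mitotic cyclins, Cdk1 and anaphase-promoting complex rose in IgGK, with log2 fold changes from 0.71 to 1.73. *Ube2c*, the ubiquitin-conjugating enzyme of that complex, measured 0.748, 1.78 and 2.09 in WTK, 5.64, 4.97 and 4.83 in IgGK and 2.83, 4.73 and 3.95 in LepK. All IgGK values exceeded all WTK values by more than the spread in either group, and LepK lay between, above each WTK library and below each IgGK library. It rose in IgGK (log2 fold change 1.73 ± 0.33, adjusted p = 0.000669) and in LepK over WTK (1.31 ± 0.33, adjusted p = 0.00754). *Cdk1*, the kinase that starts mitosis, measured 1.95, 2.76 and 2.02 in WTK, 4.55, 6.54 and 4.13 in IgGK and 3.16, 4.79 and 3.80 in LepK. It rose with log2 fold change 1.18 ± 0.26, adjusted p = 0.00203, and LepK overlapped the low end of IgGK. Its partners rose too, with 1.16 ± 0.27 for *Ccna2* (cyclin A2), 1.22 ± 0.34 for *Ccnb1* (cyclin B1) and 1.01 ± 0.26 for *Ccnb2* (cyclin B2). For *Ccna2* the adjusted p was 0.00266, for *Ccnb1* 0.0091 and for *Ccnb2* 0.00524. *Ccnb2* has a transcribed pseudogene copy in the table with 1120 counts over all libraries, against 4440 for the gene itself, and reads could be split between them.

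*Cdc20*, which activates the anaphase-promoting complex, measured 2.49, 3.87 and 2.63 in WTK, 5.80, 5.83 and 3.35 in IgGK and 2.86, 3.82 and 2.81 in LepK. IgGK replicate 3 fell inside the WTK range, and the rise of *Cdc20* (log2 fold change 0.74 ± 0.27, adjusted p = 0.0391) was called in 2 of the 6 fits without 1 library. *Cdc20* overlaps *Elovl1* on the other strand (97797 counts over all libraries against 4748 for *Cdc20*), so part of its reads may belong to the neighbour. *Cdca3*, a substrate and trigger of mitotic entry, measured 3.99, 3.67 and 2.74 in WTK, 5.54, 5.89 and 5.55 in IgGK and 4.15, 6.17 and 5.10 in LepK. IgGK lay above WTK (log2 fold change 0.71 ± 0.21, adjusted p = 0.0125), and LepK replicate 2 was higher than every IgGK library. None of these 7 genes passed the edgeR test from IgGK to LepK, with 1 at an unadjusted p under 0.05 and 0 called by DESeq2. *Cdc20* showed the most negative value (-0.66, adjusted p = 0.114) and *Cdca3* the least (-0.14, 95% interval -0.59 to 0.31).

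Of the 5 mitotic kinases and checkpoint genes, *Aurka*, *Bub1* and *Bub1b* rose in IgGK. *Bub1b* measured 1.79, 2.53 and 1.73 in WTK, 4.78, 6.89 and 5.72 in IgGK and 2.83, 3.49 and 3.14 in LepK. The ranges were apart in the order WTK, LepK, IgGK. *Bub1b* rose from WTK to IgGK (log2 fold change 1.52 ± 0.24, adjusted p = 0.000137) and fell from IgGK to LepK (log2 fold change -0.88 ± 0.23, adjusted p = 0.0173). *Aurka*, which drives spindle pole assembly, measured 1.12, 2.01 and 1.55 in WTK, 6.07, 3.77 and 3.21 in IgGK and 2.83, 3.05 and 2.29 in LepK, with IgGK replicate 1 the highest kidney library. Its level rose in IgGK (log2 fold change 1.47 ± 0.31, adjusted p = 0.00138). LepK lay below every IgGK library without passing the test (-0.67, adjusted p = 0.136). *Bub1*, the checkpoint kinase at the kinetochore, was near the limit of detection in WTK, at 0, 0.632 and 0.397 in WTK, 2.01, 1.49 and 1.56 in IgGK and 1.09, 0.771 and 1.33 in LepK, where WTK replicate 1 held no count. It rose in IgGK (log2 fold change 2.27 ± 0.67, adjusted p = 0.0119), and the wide standard error goes with counts of 0 to 16 in WTK.

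*Plk1*, the kinase of mitotic entry and exit, measured 1.45, 3.04 and 2.63 in WTK, 2.80, 4.29 and 3.93 in IgGK and 3.26, 3.89 and 3.99 in LepK. The groups overlapped, with 0.63 ± 0.29 from WTK to IgGK and 0.01 from IgGK to LepK (95% interval -0.59 to 0.62). *Ttk*, the kinase that starts checkpoint signalling, had the lowest counts among the members, at 0.415, 0.434 and 0.216 in WTK, 0.923, 0.915 and 0.578 in IgGK and 0.132, 0.704 and 0.554 in LepK. LepK replicate 1 held 4 counts, and the interval from IgGK to LepK ran from -2.05 to 0.46 on the log2 scale, so that a difference of the size found in *Bub1b* was not detectable at this depth.

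In the group of the passenger complex and centromere 5 of 6 genes rose. *Aurkb* measured 0.665, 1.18 and 0.829 in WTK, 3.23, 4.40 and 3.84 in IgGK and 1.42, 1.61 and 2.07 in LepK. No library of one group reached into another, and LepK stood nearer to WTK than to IgGK. *Aurkb* rose in IgGK (log2 fold change 2.09 ± 0.30, adjusted p = 7.78e-05), fell from IgGK to LepK (log2 fold change -1.17 ± 0.29, adjusted p = 0.0126) and was still above vehicle in LepK (0.92 ± 0.31, adjusted p = 0.0318). Its call in LepK against WTK was kept in 2 of the 6 fits without 1 library. Its partner *Birc5*, which encodes survivin, measured 2.20, 2.17 and 2.27 in WTK, 5.14, 6.002 and 4.10 in IgGK and 4.28, 3.92 and 4.58 in LepK. IgGK kidneys were higher (log2 fold change 1.20 ± 0.21, adjusted p = 0.000369), with LepK inside or just under the IgGK range (-0.26 from IgGK to LepK, 95% interval -0.69 to 0.18). *Cdca8*, the gene of borealin in the same complex, measured 1.54, 1.82 and 2.42 in WTK, 5.14, 5.52 and 5.61 in IgGK and 3.23, 4.66 and 2.77 in LepK. It rose in IgGK (log2 fold change 1.49 ± 0.26, adjusted p = 0.000301), and each LepK library was below each IgGK library, at an adjusted p of 0.102.

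Among the centromere genes, *Cenpf*, a large kinetochore protein, measured 0.498, 1.03 and 1.30 in WTK, 4.12, 5.43 and 4.10 in IgGK and 2.01, 3.86 and 2.70 in LepK. WTK, LepK and IgGK were apart in this order. Its rise in IgGK (log2 fold change 2.26 ± 0.35, adjusted p = 0.00015) and the difference left between WTK and LepK (1.59 ± 0.36, adjusted p = 0.00377) passed the test, and the value from IgGK to LepK did not (-0.67, adjusted p = 0.171). *Cenpa*, the histone variant that marks centromeres, rose in IgGK (log2 fold change 1.38 ± 0.25, adjusted p = 0.000498). *Cenpe*, the kinetochore motor, measured 5.90, 4.50 and 3.46 in WTK, 5.11, 6.57 and 5.26 in IgGK and 5.43, 4.49 and 4.02 in LepK, with overlap of all groups and 0.29 ± 0.22 from WTK to IgGK.

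Of the 8 spindle and cytokinesis genes, *Kif11*, *Kif23*, *Kif2c*, *Prc1* and *Tpx2* rose. *Kif11* measured 1.54, 1.58 and 2.45 in WTK, 5.11, 7.06 and 4.36 in IgGK and 1.58, 3.55 and 2.36 in LepK. IgGK lay above both other groups, and LepK overlapped WTK. It rose in IgGK (log2 fold change 1.56 ± 0.33, adjusted p = 0.00134) and fell in LepK (log2 fold change -1.14 ± 0.32, adjusted p = 0.0242), and its difference between LepK and WTK was 0.42 ± 0.33 (adjusted p = 0.345). *Tpx2*, which activates Aurora A on the spindle, had the largest log2 fold change of the 45 in IgGK (log2 fold change 2.34 ± 0.30, adjusted p = 2.61e-05). *Kif2c*, which depolymerizes microtubules at centromeres, measured 0.415, 0.869 and 0.829 in WTK, 3.07, 3.20 and 2.08 in IgGK and 1.55, 0.872 and 1.96 in LepK. It rose in IgGK (log2 fold change 1.97 ± 0.40, adjusted p = 0.00104), with LepK between the others without overlap and an adjusted p of 0.1 from IgGK to LepK.

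The midzone genes *Kif23* and *Prc1*, which bundle microtubules for cytokinesis between the separating chromosomes, both rose in IgGK. *Kif23* measured 3.74, 2.96 and 3.14 in WTK, 9.63, 11.7 and 8.27 in IgGK and 7.80, 11.1 and 6.02 in LepK, with LepK replicate 2 as high as the IgGK libraries. Its rise in IgGK (log2 fold change 1.59 ± 0.23, adjusted p = 7.84e-05) was called, and it was higher in LepK than in WTK (1.34 ± 0.23, adjusted p = 0.00068). *Prc1* measured 1.12, 2.29 and 1.55 in WTK, 3.59, 3.52 and 5.35 in IgGK and 2.30, 2.72 and 2.55 in LepK, with every LepK library below every IgGK library. Its rise in IgGK was called (log2 fold change 1.32 ± 0.29, adjusted p = 0.00209), and it gave -0.72 from IgGK to LepK (adjusted p = 0.0988), which did not pass.

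The other 3 spindle genes were not called in IgGK. *Kif20a*, a cytokinesis motor, measured 1.41, 2.13 and 2.45 in WTK, 1.88, 2.001 and 2.72 in IgGK and 2.24, 1.68 and 2.81 in LepK. *Nusap1*, which binds spindle microtubules around chromosomes, measured 5.94, 8.73 and 7.28 in WTK, 8.41, 5.49 and 7.60 in IgGK and 5.40, 5.83 and 4.28 in LepK. *Hmmr*, the hyaluronan-mediated motility receptor that also sits on spindles, measured 0.540, 2.41 and 0.793 in WTK, 1.29, 2.26 and 2.46 in IgGK and 1.81, 1.81 and 2.18 in LepK. WTK and IgGK overlapped in each of them, with 0.14 ± 0.31, -0.03 ± 0.21 and 0.68 ± 0.48 from WTK to IgGK. *Kif20a* overlaps *Cdc23* (13360 counts over all libraries against 2195 for *Kif20a*) and *Nusap1* overlaps *Oip5* (786 against 4549), so part of their reads may belong to the neighbour. All LepK values of *Nusap1* were below all WTK values (-0.50 ± 0.21, adjusted p = 0.0792).

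From IgGK to LepK, 5 of the 45 members fell (11.1%) and none rose, while 5.99% of all genes tested fell and 4.38% rose. No member was higher at an unadjusted p under 0.05, and DESeq2 gave 6 lower and 0 higher. The members' median was -0.42 and that of all genes -0.01. Of the 45, 42 were lower, and all 45 with scaling by library size alone, which moved the median of all genes to -0.19 and gave 14 calls. LepK lay below IgGK without overlap for 18 members (40%), against 19.5% of all genes tested. The median was -0.57 over the G2/M members, which hold all 5 calls, and -0.24 over the G1/S and S phase members, of which 16 of 17 were lower. The difference between these groups of members was not tested.

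The 5 calls depended on single libraries. Without IgGK replicate 2 none was left, without LepK replicate 1 only *Top2a* was, and without LepK replicate 3 *Bub1b*, *Aurkb* and *Top2a* were. Without IgGK replicate 2 the log2 fold changes of *Mki67* and *Top2a* were -0.73 and -0.65, with adjusted p of 0.0912 and 0.0716. IgGK replicate 2 was the highest of its group for 29 of 45 members and LepK replicate 1 the lowest of its group for 25. Summed over the 45, the level was 200.1 to 236 CPM in WTK, 350.2 to 418 CPM in IgGK and 264 to 313 CPM in LepK, and these ranges did not overlap.

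**Figure D3:**
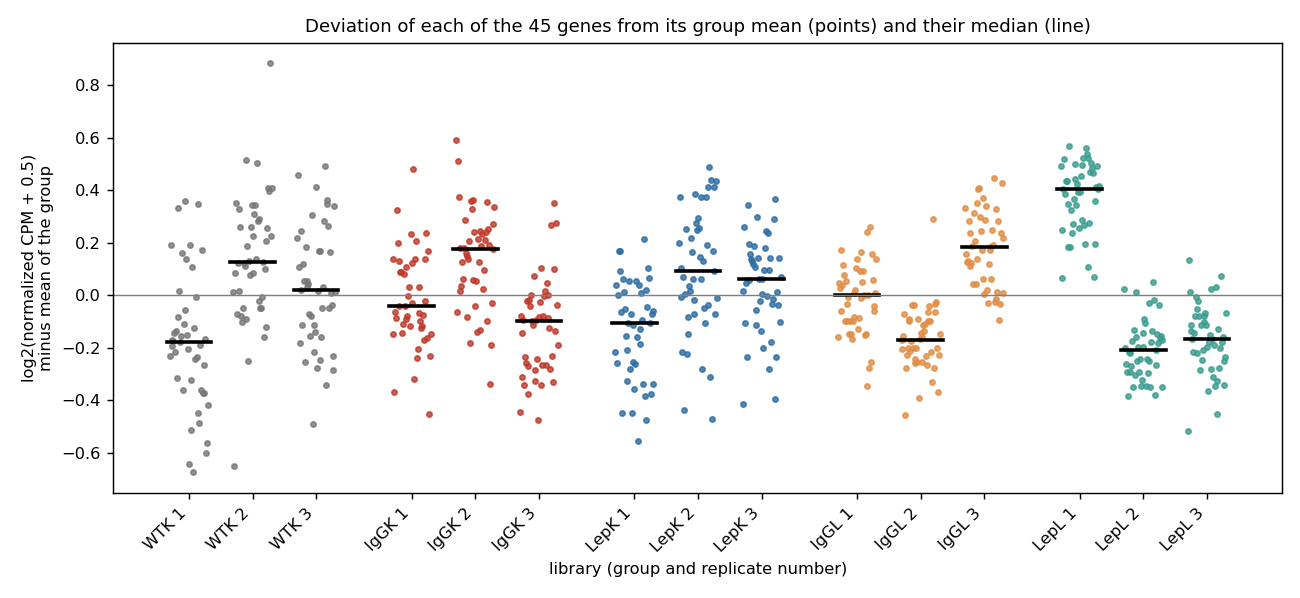
Deviation of each of the 45 genes (points) from the mean of its group on the scale log2(normalized CPM + 0.5) (vertical axis), for the 15 libraries (horizontal axis), with the median over the genes as a line. The members of a library move together, as in LepL replicate 1, which is the highest of its group for 43 of 45 genes.

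Between LepK and WTK 18 members remained higher (40%) and none lower, with 15.2% and 7.3% of all genes tested called in these directions. *Nusap1* alone was lower at an unadjusted p under 0.05, and DESeq2 called 19 higher and 0 lower. The median was 0.63 over the members and 0.03 over all genes. All LepK libraries lay above all WTK libraries for 23 members (51.1%), and for 25.6% of all genes. Without LepK replicate 3 there were 10 calls. *Foxm1*, *Birc5*, *Cenpf*, *Kif23*, *Mki67*, *Top2a*, *Tpx2* and *Ube2c* were called in each of the 6 fits without 1 library.

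Markers of several other cell types moved with these genes in the kidney, and those of others did not. The summed level of 12 macrophage markers was 178 to 198 CPM in WTK, 932 to 1181 CPM in IgGK and 413 to 571 CPM in LepK. From WTK to IgGK 12 of 12 rose, and from IgGK to LepK 11 of 12 fell. The 10 fibroblast markers summed to 229 to 292, 1519 to 1729 and 578 to 932 CPM, with 10 of 10 rising and 8 of 10 falling, and the 10 injured tubule markers to 459 to 489.96, 1703 to 1860.5 and 1108 to 1304 CPM, with 8 rising and 6 falling. The 10 proximal tubule markers went the other way, with 10 of 10 falling in IgGK and 7 of 10 rising in LepK. T and NK cell markers summed to 13.6 to 18.8, 50.6 to 89.5 and 41.9 to 55.7 CPM, with 11 of 12 rising and 1 of 12 falling (0 to 3 without 1 library). None of these markers was at 0 in all libraries of a kidney group. Only 4 of 10 neutrophil markers were abundant enough to test, of which 3 rose in IgGK and 3 fell in LepK (0 without IgGK replicate 2), with sums of 1.08 to 1.62, 4.94 to 9.002 and 2.01 to 4.50 CPM. *Ly6g* and *Camp* among them were at 0 in every WTK and IgGK library. Of 6 erythroid markers tested, 1 fell in IgGK and 5 rose in LepK, with sums of 135 to 137, 79.5 to 164 and 218 to 377 CPM. Of 10 B and plasma cell markers 2 rose and 0 fell in IgGK, and none was called from IgGK to LepK. Of 10 endothelial markers 2 rose and 3 fell in IgGK, and 1 rose from IgGK to LepK. Over all genes tested 21.7% rose and 15.6% fell in IgGK, and 4.38% rose and 5.99% fell from IgGK to LepK. The part of all these cells in the values of the cell cycle genes was not tested. IgGK replicate 2, the highest library for most members, was also the highest IgGK library in the macrophage, fibroblast and T and NK cell sums. The same held for the B and plasma cell, neutrophil, injured tubule, endothelial, and alveolar and airway sums. It was the lowest in the proximal tubule sum (12248 CPM, against 19185 and 18659) and lay between the others in the erythroid sum.

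Other genes of the pathway were read from lists by role. From WTK to IgGK, 5 of 8 inhibitors of cyclin-dependent kinases rose and 0 fell, where 21.7% of all genes tested rose and 15.6% fell. Among the 5 were *Cdkn1a* (p21, 2.60 ± 0.19), *Cdkn2b* (p15, 1.998 ± 0.23), *Cdkn1c* (p57, 1.35 ± 0.12) and *Cdkn2a* (3.997 ± 1.12). *Cdkn1a*, the p53 target that stops the cycle, measured 3.70, 4.62 and 4.33 in WTK, 21.2, 29.04 and 26.6 in IgGK and 10.2, 16.3 and 16.2 in LepK. It fell from IgGK to LepK (log2 fold change -0.85 ± 0.17, adjusted p = 0.00506), the only inhibitor of the 8 called there. Of 12 G1 cyclins, kinases and pocket proteins 4 rose and 2 fell, where 21.7% and 15.6% of all genes did. *Ccnd1*, the gene of cyclin D1, fell from WTK to IgGK (log2 fold change -1.95 ± 0.11, adjusted p = 4.63e-08) and rose from IgGK to LepK (log2 fold change 0.53 ± 0.10, adjusted p = 0.00401). *Ccnd2* went the other way, with 1.14 ± 0.17 in the first comparison and -0.72 ± 0.16 in the second. The pocket protein gene *Rbl2* fell in IgGK (-0.73 ± 0.08), and the kinase genes *Cdk6* (0.69 ± 0.07) and *Cdk2* (0.63 ± 0.09) rose. From IgGK to LepK 1 of the 12 rose and 2 fell, where 4.38% and 5.99% of all genes tested did. *Cdk6* fell there besides *Ccnd2*, and was called in each of the 6 fits without 1 library (-0.64 to -0.53).

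Among 14 further E2F and MuvB factors 2 rose and 1 fell in IgGK, no larger a share than over all genes, with *E2f8*, a repressor that is itself an E2F target, at 3.44 ± 0.48, *Lin9* at 0.58 ± 0.17 and *Lin52* at -0.93 ± 0.10. Of 40 further replication genes tested 12 rose and 2 fell (median 0.31), where 21.7% of all genes rose and 15.6% fell. Among these replication genes *Uhrf1* (2.02 ± 0.22), *Lig1* (1.15 ± 0.15) and *Pold1* (0.91 ± 0.13) rose. Of 52 further mitosis genes 36 rose and 2 fell, with a median of 1.47, against the same shares of all genes. The mitosis genes with the smallest adjusted p were *Tubb5* (1.79 ± 0.10), *Cdc25b* (1.60 ± 0.11), *Iqgap3* (2.24 ± 0.23) and *Racgap1* (1.58 ± 0.20). From IgGK to LepK 7 of the 52 fell and 0 rose (median -0.47), where 5.99% of all genes fell and 4.38% rose. Among the 7 were *Tubb5* (-0.51 ± 0.09), *Smc2* (-0.69 ± 0.17), *Ncapg2* (-0.74 ± 0.21) and *Racgap1* (-0.64 ± 0.19). Without 1 library 0 to 5 of the 52 fell, with 0 left without LepK replicate 1 and 1 left without IgGK replicate 1 or 2. Of the 40 replication genes 2 fell, *Clspn* (-1.74 ± 0.43) and *Dbf4* (-0.71 ± 0.20), and 1 rose, no larger shares than over all genes. Of the 14 E2F and MuvB factors *E2f8* alone fell (-1.26 ± 0.41), near the share over all genes. *Clspn* was called in each of the 6 fits without 1 library, and *Dbf4* and *E2f8* in 1 of 6 each. *E2f8* was not called with the replicate number as a block.

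In bleomycin lung no member was called between LepL and IgGL by edgeR, where 1.78% of the 19617 genes tested rose and 2.36% fell. These shares depend on single libraries. The 349 genes that rose and 463 that fell became 1937 and 1602 without IgGL replicate 1, at most 18 and 4 without any other single library, and 1 and 3 with the replicate number as a block. At an unadjusted p under 0.05 there were 6 members, and DESeq2 called 3 (*Foxm1*, *Gins2* and *Kif2c*, all lower). The median was -0.18 over the members and 0.00333 over all genes, with 33 of 45 lower, or 30 of 45 with scaling by library size alone. LepL lay below IgGL without overlap for 5 members (11.1%), against 17.3% of all genes. LepL replicate 1 was the highest of its group for 43 of 45 members. It also had the highest sums of T and NK cell markers (134 CPM, against 80.6 and 94.6) and of B and plasma cell markers (322 CPM, against 131 and 199) in its group. Its macrophage, fibroblast and injured tubule sums were the highest of the group too. Its alveolar and airway (30858 CPM, against 40253 and 48130), endothelial and erythroid sums were the lowest, and its neutrophil sum lay between the others. The part of these cells was not tested. Without LepL replicate 1, 40 of 45 members were lower with a median of -0.38, and still 0 were called.

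*Mki67* measured 71.4, 60.5 and 82.5 in IgGL and 88.4, 59.2 and 56.7 in LepL, and *Top2a* measured 63.3, 51.9 and 57.9 in IgGL and 74.8, 43.8 and 53.3 in LepL. In both genes LepL replicate 1 was the highest of the 6 lungs and the other LepL libraries lay near or under the lowest IgGL library. The difference was -0.07 for *Mki67* (95% interval -0.49 to 0.35) and -0.01 for *Top2a* (95% interval -0.42 to 0.40), so that the kidney values of -0.89 and -0.85 lie outside these intervals, while the difference between the organs, tested in its own fit, was not called for either gene by edgeR.

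In the G1/S group the lung values went both ways. *Ccne1* measured 9.56, 9.47 and 13.6 in IgGL and 8.98, 6.34 and 4.21 in LepL, and *Foxm1* measured 20.1, 19.9 and 23.01 in IgGL and 18.3, 11.1 and 12.6 in LepL. In each of them all LepL libraries were below all IgGL libraries, with -0.74 ± 0.29 (adjusted p = 0.142) and -0.59 ± 0.19 (adjusted p = 0.0979), and DESeq2 called the latter. *E2f1* measured 16.5, 14.5 and 17.7 in IgGL and 26.97, 18.8 and 22.8 in LepL. It was the only member with every LepL library above every IgGL library (0.49 ± 0.16, adjusted p = 0.0987). *Ccne2* measured 6.54, 5.42 and 7.08 in IgGL and 6.92, 5.67 and 7.28 in LepL, with full overlap (0.06 ± 0.21).

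Of the licensing genes, *Gins2* measured 6.37, 4.92 and 6.35 in IgGL and 4.57, 2.72 and 2.72 in LepL. Each LepL library was below each IgGL library, and its log2 fold change of -0.82 ± 0.28 was the most negative of the 45 (adjusted p = 0.103). *Cdc6* measured 4.96, 3.03 and 5.39 in IgGL and 9.08, 4.62 and 5.57 in LepL, and its 0.53 ± 0.32 was the most positive (adjusted p = 0.327), with LepL replicate 1 above the rest. The helicase subunits overlapped between the groups. Values of *Mcm2* were 31.6, 25.9 and 32.6 in IgGL and 46.4, 27.8 and 30.9 in LepL, and those of *Mcm4* were 40.4, 36.3 and 40.01 in IgGL and 44.99, 34.96 and 39.3 in LepL. For *Mcm6* they were 50.3, 45.5 and 59.4 in IgGL and 54.95, 44.05 and 46.6 in LepL. In these 3 genes LepL replicate 2 or IgGL replicate 2 was the lowest lung, and the log2 fold changes ran from -0.09 (*Mcm6*) to 0.22 (*Mcm2*). *Mcm7* measured 36.6, 35.9 and 37.9 in IgGL and 44.1, 28.4 and 34.6 in LepL, and *Cdc45* measured 6.84, 5.39 and 7.92 in IgGL and 8.33, 5.32 and 5.52 in LepL. Here LepL replicate 1 was the highest of all 6, and the differences were -0.04 ± 0.16 and -0.07 ± 0.25.

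In the clamp and nucleotide group all 4 values were under 0. *Tyms* measured 14.3, 13.6 and 21.6 in IgGL and 15.97, 10.05 and 9.70 in LepL, and *Rrm1* measured 68.3, 71.4 and 80.6 in IgGL and 70.4, 58.6 and 47.7 in LepL. IgGL replicate 3 was the highest lung in both, and the differences of -0.47 ± 0.25 and -0.32 ± 0.15 did not pass. *Rrm2* measured 21.5, 19.8 and 31.7 in IgGL and 25.2, 16.3 and 17.9 in LepL, and *Pcna* measured 63.6, 61.3 and 90.03 in IgGL and 83.5, 63.3 and 66.9 in LepL. These overlapped, with -0.30 ± 0.22 for *Rrm2* and -0.01 for *Pcna* (95% interval -0.39 to 0.37).

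Of the 7 genes of the mitotic cyclins and the anaphase-promoting complex, 6 had values under 0. *Cdk1* measured 24.5, 18.3 and 31.4 in IgGL and 22.3, 13.4 and 16.1 in LepL and gave the most negative value, -0.52 ± 0.24 (adjusted p = 0.196). LepL replicate 1 lay inside the IgGL range and the other LepL libraries below it. *Cdca3* measured 13.9, 13.6 and 18.7 in IgGL and 14.6, 9.87 and 8.09 in LepL (-0.50 ± 0.24), and *Cdc20* measured 19.9, 16.4 and 19.3 in IgGL and 21.4, 16.1 and 16.5 in LepL (-0.04 ± 0.16). *Ube2c* was at 21.5, 17.6 and 19.5 in IgGL and 25.9, 16.9997 and 17.005 in LepL, the only gene of the group with a value above 0 (0.03 ± 0.19). LepL replicate 1 exceeded every IgGL library in *Ube2c* and *Cdc20*, and in *Cdca3* it lay inside the IgGL range with the other LepL libraries below it. *Ccnb1* differed by -0.48 ± 0.20 (unadjusted p under 0.05, adjusted p = 0.171), *Ccna2* by -0.24 ± 0.23 and *Ccnb2* by -0.21 ± 0.21.

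The 5 mitotic kinase and checkpoint genes had values under 0, and none passed the edgeR or DESeq2 test. *Aurka* measured 11.7, 10.4 and 15.9 in IgGL and 11.4, 8.59 and 8.14 in LepL, with -0.43 ± 0.22. *Bub1b* measured 17.9, 14.7 and 19.7 in IgGL and 15.6, 13.3 and 11.99 in LepL, with -0.36 ± 0.17. LepL replicate 1 was inside the IgGL range in both, and the other LepL libraries were below it. *Plk1* measured 11.7, 10.1 and 11.1 in IgGL and 12.8, 6.92 and 7.99 in LepL (-0.25 ± 0.24), and *Ttk* measured 4.63, 3.67 and 3.99 in IgGL and 5.13, 2.80 and 2.72 in LepL (-0.21 ± 0.30). *Bub1* measured 7.98, 7.41 and 8.78 in IgGL and 9.44, 6.22 and 7.89 in LepL (-0.04 ± 0.21). In these 3 genes LepL replicate 1 was the highest of the 6 lungs, and the groups overlapped.

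Around the centromere, *Aurkb* measured 14.5, 11.2 and 15.3 in IgGL and 15.4, 8.56 and 8.19 in LepL. LepL replicate 1 matched the highest IgGL library and the other 2 were below all IgGL libraries (-0.35 ± 0.26, adjusted p = 0.421). *Cdca8* measured 13.2, 13.7 and 17.5 in IgGL and 16.1, 9.73 and 8.62 in LepL (-0.36 ± 0.25), and *Birc5* measured 18.2, 17.3 and 18.96 in IgGL and 20.5, 10.8 and 12.1 in LepL (-0.33 ± 0.23). In both, LepL replicates 2 and 3 were again below all IgGL libraries. *Cenpa* was lower in each LepL library by a narrow margin (-0.28 ± 0.14). *Cenpf* measured 14.4, 10.4 and 11.9 in IgGL and 20.3, 14.3 and 10.5 in LepL, and *Cenpe* measured 9.25, 11.1 and 16.4 in IgGL and 15.4, 13.1 and 9.98 in LepL. They were the members of the group with values above 0, at 0.30 ± 0.25 and 0.07 ± 0.25, and their groups overlapped.

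Among spindle genes *Kif2c* measured 8.01, 9.41 and 11.8 in IgGL and 6.43, 5.46 and 6.45 in LepL. It was the gene with the smallest adjusted p of the 45 in lung, with all LepL libraries below all IgGL libraries (log2 fold change -0.67 ± 0.21, adjusted p = 0.0832), and was called by DESeq2 and without IgGL replicate 1. *Kif11*, which fell in LepK, measured 15.7, 12.4 and 19.8 in IgGL and 23.8, 12.7 and 15.2 in LepL. LepL replicate 1 was the highest lung, and the difference was 0.11 (95% interval -0.47 to 0.69). *Kif23* measured 17.2, 11.7 and 14.4 in IgGL and 21.7, 12.9 and 13.5 in LepL (0.15 ± 0.23), *Prc1* measured 17.4, 16.4 and 16.3 in IgGL and 19.2, 16.2 and 14.9 in LepL (0.01, 95% interval -0.32 to 0.33), and *Nusap1* measured 14.2, 12.1 and 11.8 in IgGL and 18.8, 12.7 and 12.8 in LepL (0.22 ± 0.19). LepL replicate 1 was the highest lung for all 3, and the groups overlapped. *Kif20a* measured 7.17, 10.9 and 8.71 in IgGL and 9.66, 5.78 and 5.49 in LepL (-0.36 ± 0.27), *Hmmr* measured 9.72, 7.75 and 13.8 in IgGL and 11.7, 7.30 and 6.35 in LepL (-0.30 ± 0.29), and *Tpx2* differed by -0.11 ± 0.20. Of these, *Kif20a* was highest in IgGL replicate 2 and *Hmmr* in IgGL replicate 3.

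Of the pathway lists in lung, none of the 8 inhibitors, 41 replication genes, 52 mitosis genes or 14 E2F and MuvB factors was called by edgeR, where an unadjusted p under 0.05 was seen for 4, 2, 7 and 5 genes, with medians of -0.19, -0.17, -0.17 and -0.09. *Cdkn1a* measured 357, 479 and 659 in IgGL and 346, 268 and 226 in LepL, every LepL library being below every IgGL library (-0.83 ± 0.23, adjusted p = 0.0694). *Myc*, which drives growth and G1 entry, measured 33.8, 56.6 and 52.8 in IgGL and 25.1, 22.2 and 18.7 in LepL. Its groups did not overlap, and it fell (log2 fold change -1.12 ± 0.20, adjusted p = 0.0337), a call kept without IgGL replicate 1 but lost without each of the other 5 libraries and with the replicate number as a block. Summed macrophage markers were 1745 to 2268 CPM in IgGL and 994 to 1438 CPM in LepL, with 4 of 12 falling, and fibroblast markers were 7795 to 8885 and 3558 to 4819.6 CPM, with 6 of 10 falling. Of 8 neutrophil markers tested 3 fell, with sums of 180.02 to 515 and 102 to 122 CPM. With the replicate number as a block none of the macrophage, fibroblast and neutrophil calls was left, and without any library but IgGL replicate 1 there were at most 1 fibroblast call and no macrophage or neutrophil call. Other markers went up. All 10 alveolar and airway markers were higher in LepL, with 3 called and sums of 16571 to 22616 CPM in IgGL and 30858 to 48130 CPM in LepL. All 12 T and NK cell markers were higher, with 1 called, and 9 of 10 B and plasma cell markers were higher, with 0 called. The replicate block left none of the alveolar, T and NK cell calls. The part of all these cells in the lung values was not tested.

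Whether the antibody difference of a member itself differed between the organs was tested in 1 fit of the 12 libraries of injured organs, as the difference in kidney minus that in lung. Organ, injury, day and antibody course differ together in it. No member was called by edgeR, where 3.18% of the 21488 genes tested were called above 0 and 3.49% below. At an unadjusted p under 0.05 there were 9 members, and DESeq2 called *Cdc6*, *Kif11* and *Top2a*. The smallest adjusted p was that of *Cdc6* (-1.50 ± 0.45, adjusted p = 0.0599), followed by *Top2a* (-0.81 ± 0.26, adjusted p = 0.0763) and *Kif11* (-1.22 ± 0.43, adjusted p = 0.098). For *Mki67* it was -0.79 ± 0.30 (adjusted p = 0.122). For *Aurkb* it was -0.79 ± 0.37 (adjusted p = 0.197) and for *Bub1b* -0.49 ± 0.26 (adjusted p = 0.25), so that none of the 5 genes that fell in kidney is shown by the edgeR fit to respond differently in lung. The median was -0.21 over the members and -0.00731 over all genes.

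Levels were higher in the injured lung than in the injured kidney. With all 12 libraries on the same scaling, the 45 genes summed to 396 to 468 CPM in IgGK and 862 to 1098 CPM in IgGL. For 40 of 45 members (88.9%) every IgGL library lay above every IgGK library, against 31.5% of all genes tested. The ratio of the means had a median of 2.54 over the members and 0.978 over all genes, from 0.937 for *Mcm7* and 1.20 for *Tyms* to 4.44 for *Ccne1* and 4.99 for *Ccnb1*. Organ, injury, day and antibody course differ together between these groups, and none of them can be told apart here.

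**Figure D4:**
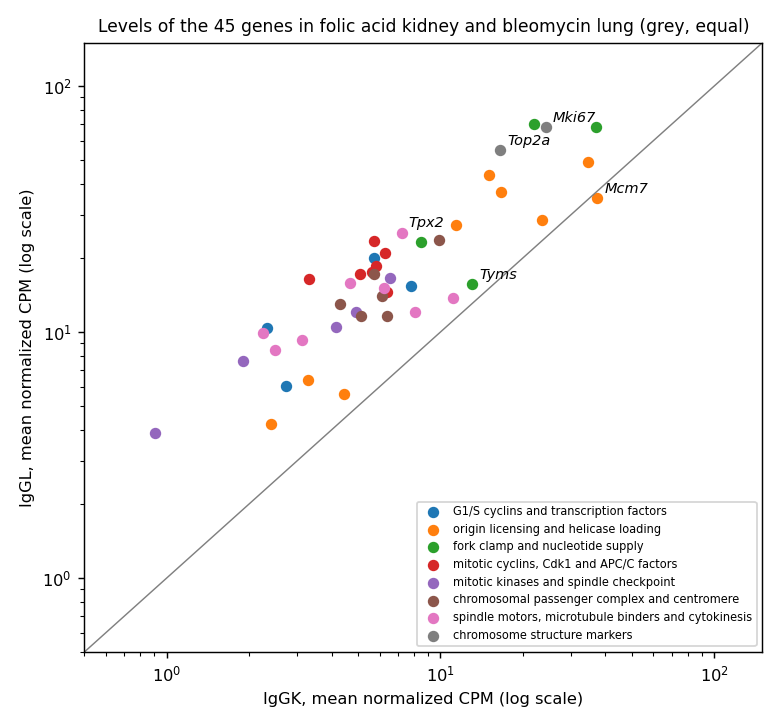
Mean normalized CPM of each of the 45 genes in IgGL (vertical axis, log scale) against IgGK (horizontal axis, log scale), on the scaling shared by 12 libraries and colored by role, with n = 3 per group. The grey line marks equal levels, and all genes but *Mcm7*, at a ratio of 0.937, lie above it.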

How the data were processed

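Poly(A)-selected, non-directional RNA libraries of 15 mouse kidneys and lungs were analysed. The table deposited by the authors holds whole-number read counts per gene and library, not normalized. The aligner and the counting tool are not given in the sources used here. The submitters' processing notes name GRCm39, mm39 and DESeq2. The table also holds FPKM values, group means and the authors' own fold changes and p-values, none of which were used. Libraries were grouped by title, tissue and treatment. A line in the descriptions gives column names that differ from the titles, and it was left aside. Doses, ages and days are from the study's methods, not from the labels. Within groups, counts differed by a chi-square statistic of 6.73 to 87.4 per gene, so no library was counted as a repeat of another. The label for batch holds 1 date for all libraries.

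The tests ran in edgeR 4.0.16 (with limma 3.58.1) under R 4.3.3, and DESeq2 1.42.0 served as an alternative. Genes were filtered with filterByExpr (minimum count 10, minimum total count 15) and counts were scaled by TMM factors. The 9 kidney libraries, the 6 lung libraries and, for kidney minus lung, the 12 libraries of injured organs each entered their own quasi-likelihood fit (glmQLFit and glmQLFTest). P-values were adjusted by the Benjamini-Hochberg method over all genes tested, and intervals are 95%. A member was called when the adjusted p was under 0.05 and the absolute log2 fold change over 0.5. On simulated counts with genes changed by 1 on the log2 scale, the kidney fit recovered 65.7% of them for IgGK against WTK and 63.3% for either comparison of LepK, the lung fit 49.5%, and the fit of kidney minus lung 29.3%. Of genes changed by 2 these recovered 83.7%, 79.8% (against IgGK) or 78.8% (against WTK), 74.2% and 58.2%.

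The 45 members, their roles, the pathway lists and the cell type marker lists were chosen with earlier results of these data known. Values in every library are given for *Mki67*, *Top2a*, the members with the most and least negative antibody difference of each role in kidney and in lung, members not called in IgGK, and members higher in LepL. Pathway genes are named where called, at most 4 per list and comparison by smallest adjusted p; *Cdkn1a* and *Ccnd2* are named beyond this, and 1 pathway gene is not reported here. Promoters are from RefSeq (GRCm38.p6). Alternatives were other scalings, no filter, DESeq2, other fold thresholds, the replicate number as a block, fewer or more groups in the fit, and leaving out each library.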

Additional observations from a re-analysis of the deposited data

Results flagged for a closer look

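In the pathway lists the antibody difference itself differed between kidney and lung for 3 genes, none of them among the 45 members, by the interaction term of the edgeR fit of 12 libraries. These lists held 8, 12, 14, 41 and 52 genes. Over all 21488 genes tested 3.18% were called above 0 and 3.49% below, so the 3 are no larger a share than over all genes. *Ccnd2*, which encodes cyclin D2, measured 30.7, 39.0 and 23.2 CPM in IgGK kidneys and 17.6, 17.0 and 21.7 in LepK, against 169.7, 143 and 129 in IgGL and 186, 161 and 168 in LepL. It fell in kidney and its lung groups overlapped, and kidney minus lung gave -0.91 (adjusted p = 0.0338). *Myc*, a transcription factor gene tied to growth, measured 13.5, 14.5 and 14.97 CPM in IgGK kidneys, 13.2, 18.2 and 11.6 in LepK, 33.8, 56.6 and 52.8 in IgGL and 25.1, 22.2 and 18.7 in LepL. It was called in lung and not in kidney, the lung call being lost in 5 of the 6 fits that left out 1 lung library and with the replicate block, and kidney minus lung gave 1.15 (adjusted p = 0.0312). *Stmn1*, which encodes the microtubule-destabilizing protein stathmin, measured 47.1, 54.3 and 50.6 CPM in IgGK kidneys, 38.1, 45.4 and 51.0 in LepK, 90.7, 57.3 and 64.0 in IgGL and 133, 98.3 and 111 in LepL. Kidney minus lung gave -0.84 (adjusted p = 0.0444), and *Stmn1* was called in neither organ on its own. The direction was the same in all 19 alternatives for each gene (-1.16 to -0.71 for *Ccnd2*, 0.90 to 1.35 for *Myc* and -1.08 to -0.71 for *Stmn1*), but of the 12 fits that left out 1 library, 3, 3 and 1 still called *Ccnd2*, *Myc* and *Stmn1*. The replicate block ended the calls of *Ccnd2* and *Stmn1*. Organ, injury, day and antibody course cannot be told apart in this fit.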

How the results depend on the processing

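The count of members that rose in IgGK against WTK was 25 to 39 over all alternatives and always within 1.5 times of 31. From IgGK to LepK, 14 members were called with library size alone and 2 at an absolute log2 fold change over 1 (*Aurkb* and *Kif11*), a threshold that *Mki67* (-0.89) and *Top2a* (-0.85) miss. Leaving out 1 library gave 0 to 7 calls there, 10 to 18 for LepK against WTK, 0 to 1 for LepL against IgGL and 0 to 2 for kidney minus lung. LepK against WTK gave 29 calls with library size alone and 7 at the larger fold threshold. LepL against IgGL gave 3 without the filter (*Ccne1*, *E2f1*, *Foxm1*) and 3 with DESeq2. Kidney minus lung gave 4 with library size alone, 4 without the filter and 3 with DESeq2. Without 1 library, the log2 fold change from IgGK to LepK was -1.15 to -0.72 for *Mki67* and -0.94 to -0.65 for *Top2a*, and in lung -0.30 to 0.048 and -0.25 to 0.15. *Top2a* in lung also turned to 0.031 with library size alone and 0.0049 without the filter. In kidney minus lung *Top2a* passed with library size alone (-1.06), without the filter (-0.83) and with DESeq2 (-0.80), and ranged from -0.97 to -0.57 without 1 library, and *Mki67* passed without the filter (-0.81). The cause of these shifts was not tested.

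Replicate numbers are shared across groups. Same-numbered libraries correlated at -0.0968 to 0.227 and never above 0.1 in all 3 pairs of a comparison. In LepK against IgGK, replicates 1 and 2 gave 0.227 and 0.215. With 3 pairs per comparison this check cannot exclude pairing, and the main fits took the libraries as unpaired. With the number as a replicate block, 32, 5, 18, 0 and 0 members were called in the 5 comparisons. With 3 libraries per group, about 63.3% of genes changed by 1 on the log2 scale were recovered in simulated kidney data. In simulated lung data the share was 49.5%. Few genes were changed in these simulations, so the rates are not the power for the data. A missing call does not show that a gene was unchanged.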
